A study of Mus musculus with 5 samples.

Results

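The dorsal forebrain patterning factors are transcription factors that give the embryonic cerebral cortex its regional identity. The list comprised 9 genes, *Emx1*, *Emx2*, *Lhx2*, *Pax6*, *Otx1*, *Otx2*, *Nr2f1*, *Nr2f2* and *Eomes*, out of 25415 genes in the files. Members were taken as every RefSeq transcript whose identifier mapped to 1 of these symbols, and the FPKM values (fragments per kilobase of transcript, scaled to the depth of the library) of a gene's transcripts were summed in each sample. All 9 symbols were found. The rule uses no measured value, but the list was chosen with earlier results of these data known.

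RNA-seq was performed on 5 samples of 2 cultured mouse cell types, NSC replicates 1 and 2 and STO replicates 1, 2 and 3. The libraries accompanied a study of three-dimensional genome structure in stem cells, in which NSCs were among the stem cells compared and STO cells were the somatic cell type. NSCs were primary neural stem cells isolated from the cortex of E12.5 mouse embryos, labelled C57BL/6 and used at passages 5 to 8. They were grown as monocultures on poly-l-ornithine and laminin in a neural basal medium with EGF, bFGF, heparin and B27. STO cells are an established fibroblast line derived from SIM mouse embryos, resistant to thioguanine and ouabain. They were also labelled C57BL/6, were used at more than 30 passages and were kept in DMEM with fetal bovine serum. No genetic change or drug treatment was labelled in either cell type. The labels do not say that replicates came from separate cultures, so the p-values below measure the spread between these samples, which may be technical. A comparison of NSCs with STO cells also compares tissue of origin, medium and time in culture, which cannot be told apart here.

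In the embryonic forebrain, these factors act on dividing progenitors. *Lhx2* and *Pax6* hold progenitors in a cortical fate, while *Emx2*, *Pax6* and *Nr2f1* are distributed in opposing gradients across the cortical sheet and set the position of cortical areas. The Otx genes specify forebrain and midbrain, and *Eomes* marks the intermediate progenitors that follow radial glia in the excitatory lineage. Several members are also used outside the brain, such as *Emx2* in the urogenital tract and *Nr2f2* in mesenchyme and veins.

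The identity of both cell types was first described by markers. The marker lists were chosen with earlier results of these data known, so this is not an independent check. At the threshold used below, 43.7% of all genes tested were higher in NSCs and 41.9% in STO cells. All 9 NSC markers examined, such as *Sox2*, *Nes*, *Fabp7* and *Slc1a3*, were higher in NSCs. The markers summed to 3579 and 3791 FPKM in the NSC replicates and to at most 26.9 FPKM in the STO replicates. Of 10 fibroblast markers, 9 passed the filter on low values and all of these were higher in STO cells, with sums of 1549 to 1659 FPKM against 10.8 and 11.2 FPKM in NSCs. *Col3a1* and *Lum*, a fibrillar collagen and a matrix proteoglycan of fibroblasts, were listed at 0 in both NSC samples. *Fn1* and *Prrx1* were the fibroblast markers highest in NSCs, at 4.09 and 3.80 FPKM and at 5.96 and 5.34 FPKM. The 9 markers of blood, vessel and microglia summed to at most 0.551 FPKM in any sample. Depth was divided out of FPKM, but the deposited confidence intervals implied between 15223341 and 22271895 fragments per sample.

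In NSCs, 5 of the 9 members had a mean FPKM of at least 1, namely *Nr2f1*, *Lhx2*, *Otx1*, *Emx2* and *Pax6*. The other 4, *Nr2f2*, *Otx2*, *Emx1* and *Eomes*, had mean FPKM values between 0 and 0.134. In STO cells, 4 members reached a mean of 1 FPKM, and these were *Nr2f1*, *Nr2f2*, *Emx2* and *Otx1*. In NSCs 1 gene of each paralogous pair reached this level and the other did not, *Emx2* and not *Emx1*, *Otx1* and not *Otx2*, and *Nr2f1* and not *Nr2f2*. The 9 members summed to 71.0 and 72.3 FPKM in NSCs and to 166, 174 and 160 FPKM in STO cells. *Nr2f1* and *Nr2f2* gave 139 to 155 FPKM of the total in STO cells and 25.6 and 24.4 FPKM in NSCs. The other 7 members summed to 45.4 and 47.8 FPKM in NSCs and to 17.7, 18.7 and 20.1 FPKM in STO cells, so without the 2 receptors the sum was higher in NSCs. These are bulk libraries, in which fewer cells expressing a gene and less of its RNA per cell cannot be told apart.

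Of the 9 members, 6 passed the filter on low values, which required that 1 of the cell types averaged 1 FPKM or more, and were tested with limma across 12293 genes. At an adjusted p under 0.05, 3 members were higher in NSCs (*Lhx2*, *Pax6* and *Otx1*) and 3 were higher in STO cells (*Nr2f2*, *Nr2f1* and *Emx2*). Over all genes tested, 43.7% were higher in NSCs and 41.9% were higher in STO cells. Most genes differed between these cell types, so a call by itself carried little information and the size of each difference is given with it. With an absolute log2 difference of at least 1 also required, 3 members were higher in NSCs and 2 in STO cells, against 21.3% and 17.1% of all genes tested. Only *Emx2* lost its call among the members under this rule. For each of the 6 tested members, the NSC samples did not overlap the STO samples, a property shared by 46.0% of tested genes in the direction of NSCs and by 43.9% in the direction of STO cells. The median difference of the 6 members was 0.45 on the log2(FPKM + 1) scale, compared with 0.02 over all genes tested. A difference on this scale understates the change of genes with low FPKM.

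**Figure D1:**
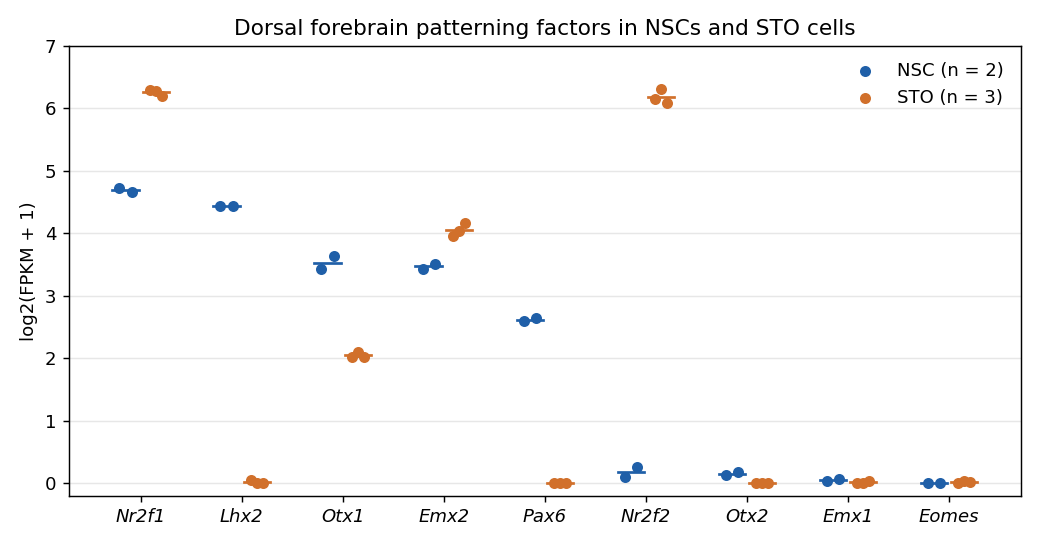
Level of each member in each sample as log2(FPKM + 1), with points for the 2 NSC samples and the 3 STO samples and a horizontal line at each group mean. *Lhx2* and *Pax6* were near 20.6 and 5.13 FPKM in NSCs and at or near 0 in STO cells, *Nr2f2* showed the opposite pattern, and *Otx2*, *Emx1* and *Eomes* lay near 0 in both.

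The plot of member levels by sample shows that, for the 6 tested members, replicates of 1 cell type lay close together compared with the distance between the cell types. *Lhx2* and *Pax6* were found in NSCs and were at or near 0 in STO cells, and *Otx1*, *Emx2* and *Nr2f1* were found in both. *Nr2f2* was found in STO cells and nearly absent from NSCs, and *Otx2*, *Emx1* and *Eomes* were near 0 in both.

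*Lhx2* and *Pax6* were the members that separated NSCs from STO cells most clearly in the direction of NSCs. *Lhx2* (chr2:38194801-38225257 in mm9), a LIM homeobox selector of cortical identity that keeps the medial progenitors from becoming hem, was listed at 20.7 and 20.6 FPKM in NSCs. In the STO replicates it was listed at 0.0386, 0 and 0 FPKM, the first of which corresponds to 1.325 implied fragments. Both NSC samples lay far above every STO sample, and *Lhx2* stood at the 68.1 percentile of tested genes in NSCs. The difference between the means was 4.42 (95% confidence interval 4.30 to 4.54, limma adjusted p = 6.3e-09) on the log2(FPKM + 1) scale. This difference exceeded the 95th percentile of all tested genes, which was 3.10, and placed *Lhx2* at position 271 of 12293 from the top.

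*Pax6* (chr2:105509053-105538567), a paired-domain homeobox factor of radial glia that is strongest in the rostrolateral cortex, was listed at 5.04 and 5.22 FPKM in NSCs. It was listed at 0 in all 3 STO samples. An exact 0 in these files can also be a failed estimate, so no fold is given against it. Of 40201 transcripts, 0, 4 and 13 had an estimate not marked as OK in STO replicates 1, 2 and 3. The level in NSCs was moderate, at the 29.7 percentile of tested genes, and rested on 376 and 424 implied fragments. The difference was 2.62 (95% confidence interval 2.51 to 2.72, limma adjusted p = 2.2e-08) on the log2(FPKM + 1) scale, and it depends on the pseudocount because the STO samples are at 0. Within NSCs, *Lhx2* exceeded *Pax6* by a ratio of 4.10 and 3.95 in the 2 replicates, both values being FPKM and therefore per length.

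The Emx genes, homeobox factors of the dorsal cortex, were unevenly represented. *Emx2* (chr19:59533180-59539847), which is highest in the caudomedial cortex, was listed at 9.79 and 10.4 FPKM in NSCs. In the STO samples it was listed at 14.6, 15.4 and 17.0 FPKM. Every STO sample lay above both NSC samples, and the means differed 1.55-fold (10.1 ± 0.423 against 15.7 ± 1.22, SD, n = 2 and n = 3). The difference was -0.58 (95% confidence interval -0.77 to -0.40, limma adjusted p = 4.0e-04) on the log2(FPKM + 1) scale. This was the smallest absolute difference among the tested members and was below the median absolute difference over all genes, 0.74. *Emx2* was therefore present at similar ranks in both cell types, at the 47.4 percentile in NSCs and the 59.3 percentile in STO cells.

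*Emx1* (chr6:85137925-85154457), whose expression covers nearly the whole dorsal cortex and persists in its excitatory neurons, was listed at 0.0271 and 0.0495 FPKM in NSCs. In STO cells it was listed at 0, 0 and 0.0248 FPKM. The NSC values correspond to about 1.0 and 2.0 implied fragments, so *Emx1* RNA was not detectable at this depth beyond a single fragment or a pair of fragments in either cell type. *Emx1* did not pass the filter and was not tested. When every gene above 0 in any sample was tested, the difference was 0.04 and did not pass (limma adjusted p = 0.12). In NSCs, *Emx2* exceeded *Emx1* by 361 and 210 in the 2 replicates, ratios that rest on those few fragments.

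The stretches of 250 bases before the start of *Emx1* and *Emx2* are shown because the 2 genes encode closely related factors of the same region and yet differed widely in level within NSCs. Each was read from the NCBIM37 genome, which is mm9, 5′ to 3′ on the strand of the gene, and capitals mark CpG dinucleotides. For *Emx1* the window was chr6:85137182-85137431 on the plus strand, and it ends 493 bp before the RefSeq start because exons of longer GENCODE transcripts were stepped over. For *Emx2* the window was chr19:59532930-59533179 on the plus strand, and it overlaps the annotated locus of *Emx2os*.
Emx1: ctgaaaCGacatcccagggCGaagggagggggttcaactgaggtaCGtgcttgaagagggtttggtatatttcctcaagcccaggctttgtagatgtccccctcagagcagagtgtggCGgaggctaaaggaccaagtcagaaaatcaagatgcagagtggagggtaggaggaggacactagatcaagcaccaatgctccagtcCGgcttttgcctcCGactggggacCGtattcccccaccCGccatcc
Emx2: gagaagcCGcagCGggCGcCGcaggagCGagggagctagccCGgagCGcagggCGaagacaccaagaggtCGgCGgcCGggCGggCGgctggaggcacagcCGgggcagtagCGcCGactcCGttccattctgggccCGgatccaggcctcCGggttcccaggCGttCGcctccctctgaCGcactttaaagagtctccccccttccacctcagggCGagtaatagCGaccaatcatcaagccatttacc

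The *Emx2* window held 24 CpG dinucleotides and 67.2% G + C, and its ratio of observed to expected CpG was 0.85. The *Emx1* window held 8 CpG dinucleotides and 55.6% G + C, with a ratio of 0.42. Over windows of 19816 genes taken in the same way, the medians were 9 CpG dinucleotides, 54.8% G + C and a ratio of 0.52, so the *Emx1* window was close to a typical gene and that of *Emx2* was CpG-rich.

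The Otx genes, homeobox factors of the forebrain and midbrain, repeated the uneven pattern. *Otx1* (chr11:21894767-21901654), the later member of the pair in cortical development and one used by deep-layer neurons, was listed at 9.74 and 11.4 FPKM in NSCs. In STO cells it was listed at 3.06, 3.30 and 3.07 FPKM. Both NSC samples lay above every STO sample, and the means differed 3.37-fold (10.6 ± 1.21 against 3.14 ± 0.136, SD, n = 2 and n = 3). The difference was 1.48 (95% confidence interval 1.29 to 1.67, limma adjusted p = 4.8e-06) on the log2(FPKM + 1) scale. The NSC replicates were farther apart for *Otx1* than for *Lhx2* or *Pax6*, and *Otx1* was readily detected in the fibroblast line, with 190 to 295 implied fragments.

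*Otx2* (chr14:49277352-49287319), which establishes the anterior neural plate and the midbrain boundary, was listed at 0.0912 and 0.126 FPKM in NSCs and at 0 in all STO samples. These values correspond to 5.02 and 9.09 implied fragments. The ratio of *Otx1* to *Otx2* was 107 and 91.1 in the NSC replicates. *Otx2* did not pass the filter. With every gene above 0 tested, its difference of 0.15 passed (limma adjusted p = 0.0012), but the level was very low in both cell types.

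*Nr2f1* and *Nr2f2* encode the orphan nuclear receptors COUP-TFI and COUP-TFII, and their ratio differed widely between the cell types. *Nr2f1* (chr13:78328236-78338134), which is highest in the caudolateral cortex and specifies sensory areas, was listed at 25.6 and 24.2 FPKM in NSCs. In STO cells it was listed at 77.9, 76.8 and 72.8 FPKM. It had the highest mean of the members in both cell types, although *Nr2f2* exceeded it in STO replicate 2, at 78.4 against 76.8 FPKM. Every STO sample lay above both NSC samples for *Nr2f1*. The means differed 3.05-fold (24.9 ± 0.954 against 75.8 ± 2.72, SD, n = 2 and n = 3), a difference of -1.57 (95% confidence interval -1.71 to -1.43, limma adjusted p = 7.8e-07) on the log2(FPKM + 1) scale.

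*Nr2f2* (chr7:77496836-77511632), which in the telencephalon is most abundant in the caudal ganglionic eminence and is common in mesenchyme, was listed at 0.0679 and 0.200 FPKM in NSCs. In STO cells it was listed at 70.4, 78.4 and 66.7 FPKM. The groups were widely separated, with a ratio of means of 537 and a difference of -6.00 (95% confidence interval -6.22 to -5.79, limma adjusted p = 1.5e-08). The NSC values rested on 8.02 and 28.0 implied fragments, so the ratio is imprecise. *Nr2f2* was at position 52 of 12293 from the top in the direction of STO cells, below the 5th percentile of all differences, which was -2.42. In STO cells the 2 receptors were nearly equal, with ratios of *Nr2f1* to *Nr2f2* of 1.11, 0.980 and 1.09. In NSCs the same ratio was 377 and 121.

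The window before the start of *Nr2f1* is shown because it can be set against that of *Emx2*, as both genes were found in both cell types. It spans chr13:78339019-78339268 in mm9 on the minus strand and ends 884 bp before the RefSeq start. Capitals again mark CpG dinucleotides.
Nr2f1: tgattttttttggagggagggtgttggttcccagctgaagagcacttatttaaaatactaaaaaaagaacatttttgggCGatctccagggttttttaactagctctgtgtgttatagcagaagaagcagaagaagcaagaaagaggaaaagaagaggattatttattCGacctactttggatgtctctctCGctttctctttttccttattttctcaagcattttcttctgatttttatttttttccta

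The *Nr2f1* window held 3 CpG dinucleotides and 35.2% G + C, both below the medians over all genes. *Nr2f1* thus had the highest mean of the members and the fewest CpG dinucleotides among the windows described here. Its window lies at a distance from its RefSeq start. The other 4 members at 1 FPKM or more in NSCs, *Lhx2*, *Emx2*, *Otx1* and *Pax6*, had between 11 and 29 CpG dinucleotides. *Emx1*, *Eomes* and *Otx2*, which were near 0, had between 6 and 8. The windows of *Pax6* and *Otx1* end 635 and 59 bp before the RefSeq start. Those of *Otx2* and *Eomes* belong to transcripts chosen on few fragments. A relation between CpG dinucleotides and level was not tested.

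*Eomes* (chr9:118387307-118395250), a T-box factor also called Tbr2, was listed at 0 in both NSC samples. In the STO samples it was listed at 0, 0.0212 and 0.00795 FPKM, about 1 fragment or less. The gene was not tested, and with every gene above 0 included the difference was -0.01 (limma adjusted p = 0.49). RNA of this marker of intermediate progenitors was thus not detectable in the NSC cultures at this depth.

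**Figure D2:**
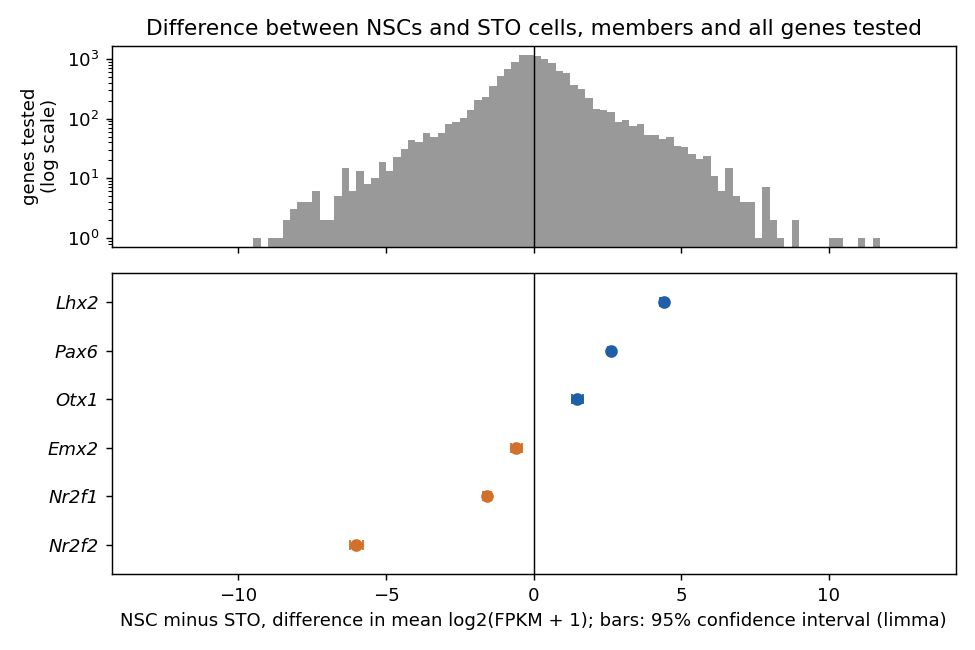
The upper panel is a histogram of the difference, NSC minus STO in mean log2(FPKM + 1), for all 12293 genes tested with a log count axis, and the lower panel gives the 6 tested members with their 95% confidence intervals on the same horizontal axis. *Lhx2* at 4.42 and *Nr2f2* at -6.00 lie in the outer parts of the distribution, and *Emx2* at -0.58 lies within its bulk.

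The plot of differences against all tested genes places *Lhx2* and *Nr2f2* beyond the 95th and the 5th percentile. *Pax6*, *Otx1* and *Nr2f1* lay between those limits but outside the middle range of -0.68 to 0.83 that holds the 25th to the 75th percentile. *Emx2* lay within that middle range.

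The order of levels within each cell type was then examined. In NSCs the order by mean FPKM was *Nr2f1*, *Lhx2*, *Otx1*, *Emx2*, *Pax6*, *Nr2f2*, *Otx2*, *Emx1* and *Eomes*. The replicate values of *Otx1* and *Emx2* overlapped, as did those of *Nr2f2* and *Otx2*, and all other neighbours in the order were separated. In STO cells the order was *Nr2f1*, *Nr2f2*, *Emx2* and *Otx1*, followed by 5 members near 0. *Nr2f1* and *Nr2f2* overlapped in STO cells, and the 5 lowest members overlapped one another.

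The RefSeq transcripts that carried each gene's signal were compared next. The assignment of fragments to transcripts with shared exons is an estimate by Cufflinks, and shares are descriptions without a test. *Lhx2* was carried by NM_010710, which held 88.6% of the gene's FPKM in each NSC replicate. The rest came from NM_001290646, which starts 12027 bp away. Of the 8 *Pax6* transcripts, only NM_001310144 and NM_001244202 were above 0 in NSCs, and their starts are 385 bp apart. NM_001310144 was listed at 2.91 and 2.72 FPKM and NM_001244202 at 2.13 and 2.51 FPKM, so the share of the first was 57.7% and 52.0%. All *Nr2f1* signal was assigned to NM_010151, 1 of 3 transcripts, in both cell types. All *Nr2f2* signal was assigned to NM_009697, 1 of 2 transcripts, and the other, NM_183261, was listed at 0 in every sample. *Emx1*, *Emx2* and *Otx1* have 1 transcript each in the files.

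**Figure D3:**
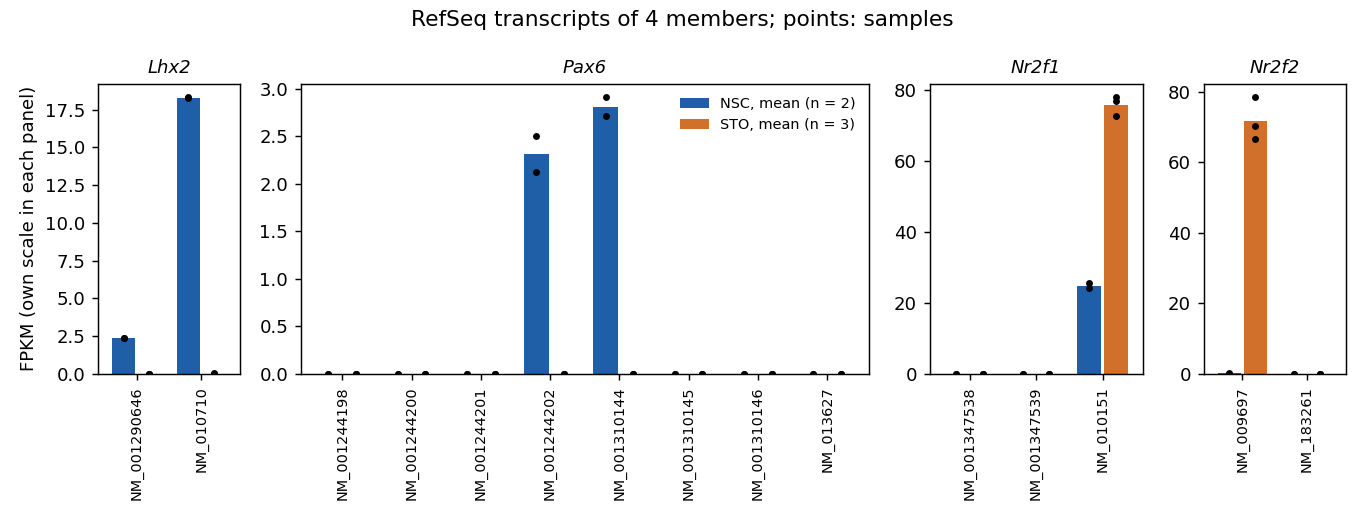
FPKM of each RefSeq transcript of *Lhx2*, *Pax6*, *Nr2f1* and *Nr2f2*, with bars for the mean of the NSC samples (n = 2) and of the STO samples (n = 3), points for samples and a separate scale from 0 in each panel. The *Pax6* signal in NSCs is divided between 2 of 8 transcripts, while *Nr2f1* and *Nr2f2* are each carried by 1.

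The plot of member transcripts shows that *Nr2f1* and *Nr2f2* had the same leading transcript in both cell types. The mean of NM_010151 was 24.9 FPKM in NSCs and 75.8 FPKM in STO cells. *Otx2* differed between replicates, since its few fragments were assigned to NM_144841 in NSC replicate 1 and to NM_001286482 in NSC replicate 2.

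**Figure D4:**
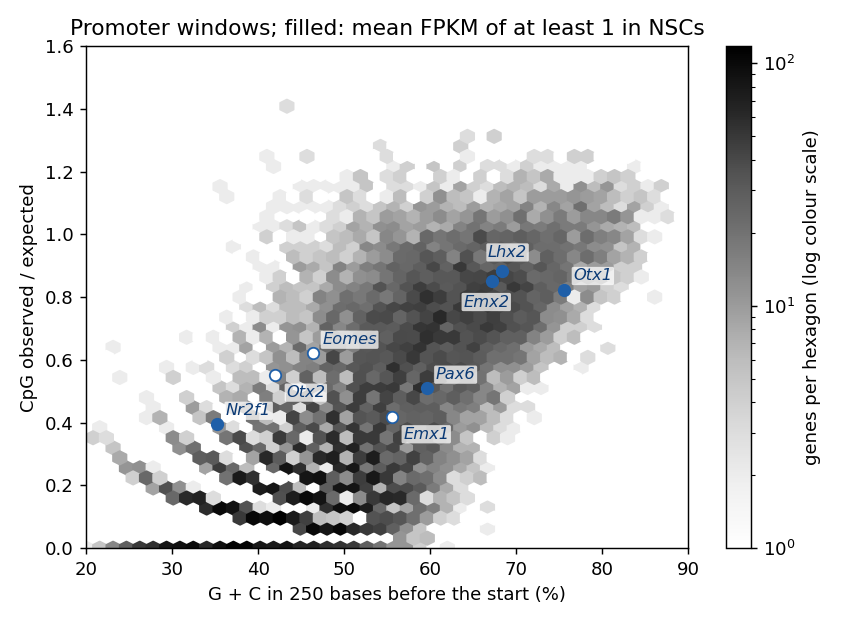
Percentage of G + C against the ratio of observed to expected CpG in the 250 bases before the start, with grey hexagons for 19816 genes (log colour scale) and circles for 8 of the 9 members, filled where NSCs averaged 1 FPKM or more. *Lhx2*, *Emx2* and *Otx1* lie among the CpG-rich windows with ratios of 0.88, 0.85 and 0.82, and *Nr2f1* lies at low G + C.

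The plot of G + C against CpG shows a wide spread of the members in base composition. *Otx1* had the highest G + C, 75.6%, with 29 CpG dinucleotides, and *Lhx2* had 68.4% with 24. *Pax6*, with 59.6% and 11 CpG dinucleotides, was close to the median ratio at 0.51. The windows of *Otx2* and *Eomes*, which were near 0 in NSCs, had 42.0% and 46.4% G + C. Short motifs were searched on both strands of each window. The homeobox core TAATTA was found in 1 member, *Otx2*, against 4.61% of all windows. The Otx-type motif TAATCC was found in 1 member, *Nr2f1*, against 6.63% of all windows. The nuclear receptor element AGGTCA was found in 0 members, against 12.0% of all windows. A match is a description of these letters and not of a bound site.

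Genes annotated at or near the members were examined because overlapping loci can exchange reads. The library kit keeps strand, but the strand setting of the counting is not given in the sources used here, so reads of a gene and of an antisense partner cannot be told apart. *Emx2os* is a noncoding RNA whose locus lies 55 bp from that of *Emx2*. *Emx2os* was listed at 0.570 and 0.520 FPKM in NSCs and at 0.856, 0.824 and 0.984 FPKM in STO cells. It was higher in every STO sample, as *Emx2* was, but did not pass the filter. *Elp4*, whose 3′ end overlaps that of *Pax6*, was listed at 6.63 and 6.94 FPKM in NSCs and at 3.46, 3.21 and 3.21 FPKM in STO cells, so *Elp4* RNA was present in the samples where *Pax6* was listed at 0. *Pax6os1* and *Otx2os1* were listed at 0 in all 5 samples, and *Paupar* only reached 0.0333 FPKM in NSC replicate 2.

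Of the noncoding RNAs that overlap the receptor loci, only *B130024G19Rik* was called different between the cell types. *B130024G19Rik*, which overlaps *Nr2f2*, was listed at 0 in NSCs and at 1.00, 0.833 and 1.17 FPKM in STO cells, where *Nr2f2* was also found (limma adjusted p = 2.7e-05). *A830082K12Rik*, which overlaps *Nr2f1*, was listed at 2.84 FPKM in NSC replicate 2 and at 0 in the other 4 samples, and it did not pass (limma adjusted p = 0.12). *Sfxn5*, 8.59 kb from *Emx1* and a mitochondrial carrier gene, was at 47.1 FPKM in NSCs and 6.12 FPKM in STO cells while *Emx1* was near 0 in both. *Ehbp1*, 4.17 kb from *Otx1*, differed by -0.16 (limma adjusted p = 0.030).

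The members were then set beside other regulators of the dorsal telencephalon, a list of 17 genes. Only 6 of them passed the filter, 4 higher in NSCs and 2 higher in STO cells, with a median difference of 3.11. For this and each following list, the shares over all genes tested were 43.7% higher in NSCs and 41.9% in STO cells. *Wnt7b*, a Wnt ligand of cortical progenitors, was listed at 35.7 and 36.2 FPKM in NSCs and at 0.0131, 0 and 0 FPKM in STO cells. *Dmrta2* and *Nr2e1*, transcription factors of cortical or forebrain progenitors, were between 6.87 and 12.1 FPKM in NSCs and at most 0.336 FPKM in STO cells.

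*Gli3*, the Hedgehog-pathway repressor that restricts ventral fate and is needed for cortical hem and dorsal identity, was nearly absent from NSCs. It was listed at 0.0830 and 0.162 FPKM there and at 13.7, 14.0 and 11.1 FPKM in STO cells (difference -3.63, limma adjusted p = 2.8e-07). The remaining 11 genes of the list did not pass the filter, and 3 of them, *Fezf1*, *Fezf2* and *Neurog1*, were listed at 0 in every sample. With the members, the dorsal genes named here at 1 FPKM or more in NSCs were thus *Nr2f1*, *Lhx2*, *Otx1*, *Emx2*, *Pax6*, *Wnt7b*, *Dmrta2* and *Nr2e1*, and those below 1 FPKM included *Emx1*, *Eomes*, *Gli3* and *Neurog2*.

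**Figure D5:**
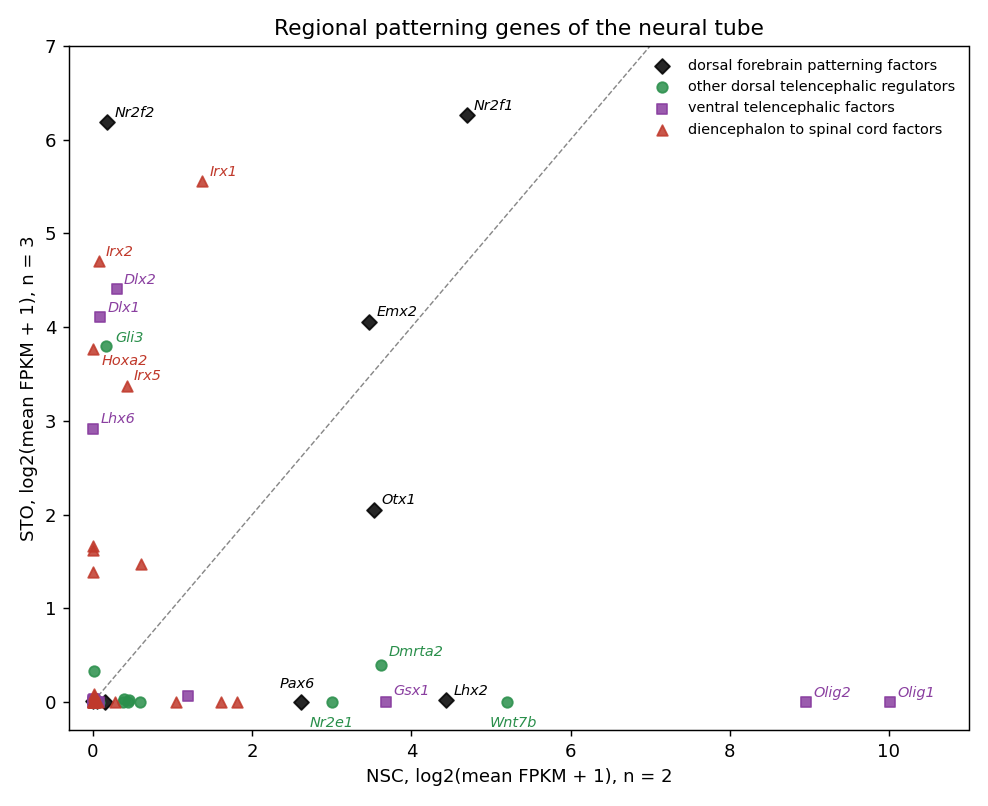
Mean level in NSCs (n = 2) against mean level in STO cells (n = 3), each as log2(mean FPKM + 1), for the members and genes of 3 other lists of regional genes, with a dashed line of equality and names where either axis exceeds 2. *Olig1* and *Olig2* lie far to the right, and *Emx2* and *Nr2f1* lie above the line. *Nr2f2*, *Dlx1*, *Dlx2*, *Irx1* and *Irx2* lie at the upper left.

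Ventral telencephalic factors were examined because the members define the dorsal side of the same boundary. Of 14 genes, 8 were tested, with 5 higher in NSCs and 3 higher in STO cells and a median difference of 2.40. *Olig1*, a bHLH factor of the oligodendrocyte lineage, was listed at 964 and 1108 FPKM in NSCs and *Olig2* at 499 and 493 FPKM. Both were listed at 0 in every STO sample. *Gsx1*, a homeobox factor of the ganglionic eminences, was at 11.7 and 12.1 FPKM. The interneuron determinants *Dlx1* and *Dlx2* were instead higher in STO cells, with 16.0 to 16.4 FPKM and 19.4 to 21.8 FPKM, and were at most 0.282 FPKM in NSCs.

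The plot of regional genes sets the lists side by side. The ventral list summed to 1516 and 1658 FPKM in NSCs, compared with 71.0 and 72.3 FPKM for the members and 105 and 106 FPKM for the other dorsal regulators. Most of the ventral sum came from *Olig1*, at 964 and 1108 FPKM, and *Olig2*, at 499 and 493 FPKM. The ventral sum therefore mainly describes these 2 genes, and setting it beside the dorsal sums does not compare ventral with dorsal identity.

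Factors of more caudal neural tube, from diencephalon to spinal cord, were the opposite case. Of 22 genes, 11 were tested, 3 higher in NSCs and 8 higher in STO cells, with a median difference of -1.61. They summed to 7.84 and 8.95 FPKM in NSCs and to between 96.2 and 105 FPKM in STO cells. *Barhl2*, *Gbx2* and *En2*, which mark diencephalon, anterior hindbrain and the midbrain-hindbrain region, were the 3 higher in NSCs, with mean levels between 1.06 and 2.50 FPKM. *Irx1* and *Irx2* were the most abundant of the list in STO cells, at 41.8 to 48.4 FPKM and 24.7 to 25.8 FPKM. In NSCs *Irx1* was at 1.48 and 1.69 FPKM.

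Genes of the cortical hem and antihem, the signalling borders of the cortical field, were mostly low. Of 9 genes, 2 were tested, with 1 call in each direction and a median difference of -0.14. *Sfrp2*, a secreted Wnt antagonist of the antihem, was at 6.94 and 6.09 FPKM in NSCs and at most 0.349 FPKM in STO cells. *Msx1*, a BMP-induced homeobox gene, was at 0.214 and 0.361 FPKM in NSCs and at 6.63 to 9.44 FPKM in STO cells. *Lmx1a*, *Wnt3a*, *Msx2* and *Dbx1* were listed at 0 in all 5 samples.

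Partners of the members were examined as a list of 18 cofactors. Of these, 17 were tested, 10 were higher in NSCs and 6 were higher in STO cells, and the median difference was 0.36. With 43.7% and 41.9% of all genes tested called in these directions, the counts by themselves say little about the cofactors. *Ldb1*, the adaptor through which LIM homeobox proteins such as Lhx2 form complexes, was at 52.6 and 46.0 FPKM in NSCs and at 70.2, 70.3 and 72.1 FPKM in STO cells. *Ssbp3*, which stabilises Ldb1 complexes, was at 45.8 and 43.0 FPKM in NSCs and at 94.4 to 100 FPKM in STO cells. *Ssbp4* showed the opposite direction, with 77.2 and 78.2 FPKM in NSCs and 37.0 to 42.7 FPKM in STO cells. *Lmo4*, a LIM-only protein that competes for Ldb1, was at 65.4 and 54.8 FPKM in NSCs and 44.8 to 47.8 FPKM in STO cells. The calls of *Ldb1* and *Lmo4* were lost when the highest transcript of each gene was used in place of the sum, with differences of -0.12 and -0.04.

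Among 8 paralogs of the members, 2 were tested and both were higher in STO cells, with a median difference of -1.45. *Nr2f6*, a further receptor of the COUP-TF family, was at 19.8 and 21.5 FPKM in NSCs and at 28.5 to 35.6 FPKM in STO cells. *Vax2*, a homeobox factor related to the Emx genes and known from the ventral eye, was at 0.155 and 0.0706 FPKM in NSCs and at 4.53 to 4.58 FPKM in STO cells. *Tbr1*, the T-box gene that follows *Eomes* in new cortical neurons, was at 0 and 0.0146 FPKM in NSCs.

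Markers of the cell types into which cortical progenitors differentiate were measured beside the members. Of 15 cortical neuron markers, 6 were tested, 4 higher in NSCs, 1 higher in STO cells and 1 not called. Their sum was 125 and 125 FPKM in NSCs and 16.8 to 18.2 FPKM in STO cells. *Map2*, a cytoskeletal protein of neurons, gave most of it with 100.4 and 102 FPKM, and *Rorb* and *Dcx* were at 6.11 and 5.41 FPKM and at 4.87 and 4.56 FPKM. *Tubb3* was similar in both cell types, with 9.25 and 8.14 FPKM in NSCs and 7.84 to 8.57 FPKM in STO cells (difference 0.06, limma adjusted p = 0.48). The markers that define excitatory cortical neurons, *Neurod2*, *Neurod6*, *Slc17a7* and *Tbr1*, were at most 0.0973 FPKM in NSCs, and *Slc17a6* was listed at 0 in both.

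Glial markers were more abundant. Of 7 astrocyte markers, 6 were higher in NSCs and 1, *Gja1*, was higher in STO cells, with sums of 267 and 262 FPKM in NSCs and 25.1 to 29.4 FPKM in STO cells. In NSCs *Aldoc* was at 155 and 150 FPKM, *Aldh1l1* at 47.0 and 45.8 FPKM, *Slc1a2* at 31.0 and 30.1 FPKM and *Gfap* at 15.9 and 16.9 FPKM. Of 7 oligodendrocyte lineage markers, 6 were tested, 5 higher in NSCs and 1, *Pdgfra*, higher in STO cells. Their sum was 184 and 189 FPKM in NSCs and 349 to 360 FPKM in STO cells, where *Pdgfra* alone gave 344 to 355 FPKM. *Mbp*, a myelin protein gene, was at 83.4 and 88.3 FPKM in NSCs, while *Mog*, a late myelin gene, was at 0.503 and 0.578 FPKM. The part of differentiating glia in the levels of *Nr2f1*, *Otx1*, *Lhx2*, *Emx2* and *Pax6* was not tested.

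Finally, the genes whose levels were most like those of each tested member were listed, by the Euclidean distance between log2(FPKM + 1) values over the 5 samples. The nearest genes to *Lhx2* were *Nptx2*, *Lsamp* and *Ptgds*, at distances of 0.0585 to 0.0856. Those nearest to *Pax6* were *Rps6ka6*, *9330159F19Rik* and *Shank3*, at 0.00513 to 0.0543. *Emx2* was nearest to *Ublcp1*, *Golga5* and *Nup37*, at 0.0432 to 0.162, and *Otx1* to *Arap2*, *Tmem44* and *Pik3ip1*, at 0.129 to 0.198. *Nr2f1* was nearest to *Pxn*, *Litaf* and *Fgfrl1*, at 0.201 to 0.249. *Nr2f2* was nearest to *Col5a2*, *Cxcl5* and *Casp4*, at 0.189 to 0.355, which are a fibrillar collagen, a chemokine and an inflammatory caspase. With 5 samples in 2 groups, a short distance means a similar mean level in each cell type. No other member was among the 3 nearest genes of any member.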

How the data were processed

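Stranded mRNA libraries of NSCs and STO cells were sequenced from both ends. The submitters' processing notes name HISAT2, Cufflinks 2.2.1 and mm9, and the trimmed reads were quantified against RefSeq transcripts. For 40201 transcripts in each of 5 samples, the authors deposited an FPKM value and its confidence bounds in the same unit. Sample titles gave the cell type and replicate.

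Of the transcripts, 39946 were matched to gene symbols through a RefSeq table used for names only, and FPKM values of transcripts with 1 symbol and overlapping loci were summed. Starts in the files count from 0 and were raised by 1. Implied fragments were calculated as the square of FPKM divided by the standard deviation, taking the deposited upper bound as 2 standard deviations above the value. In genes with 1 transcript and under 10 fragments, 88.9% to 90.6% of these came within 0.05 of a whole number. They were used to judge precision only.

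Genes that averaged 1 FPKM or more in either cell type were tested on log2(FPKM + 1) with limma (version 3.58.1, lmFit and eBayes with trend, R 4.3.3) as NSC minus STO, with Benjamini-Hochberg adjustment over 12293 genes and a threshold of 0.05. The fit was tested on simulated data in which few genes were changed. Most genes differed between these cell types, so that test does not give the error rate here. Replicates correlated at r = 0.994 to 0.995 across genes, which are not independent, and no 2 samples were identical. Alternatives were a pseudocount of 0.1, no filter, TPM or quantile scaling, no trend, a replicate block, the highest transcript per gene, leaving out each replicate and a minimum log2 difference of 1. Promoter windows were 250 bases before the start of the most abundant transcript in NCBIM37, moved past exons of the same gene in GENCODE vM1.

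The members and lists were chosen with earlier results of these data known. Named genes were the members, dorsal telencephalic genes averaging 1 FPKM or more in a cell type, the 4 highest in NSCs and the 2 highest in STO cells of other lists, genes within 10 kb of a member and the 3 nearest genes of each tested member. A few defining markers, border genes and low members of lists were named after their values were seen. Protein sequences were not used here, and some genes of the lists and 1 promoter window are not reported here.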

Additional observations from a re-analysis of the deposited data

How the results depend on the processing

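All 6 tested members kept their direction and their call under the 12 alternatives run for each of them. The minimum log2 difference of 1 is not among these 12, and *Emx2* lost its call under it. The log2 differences ranged from 4.25 to 7.54 for *Lhx2*, 1.93 to 5.71 for *Pax6* and 1.37 to 1.72 for *Otx1*. They ranged from -0.78 to -0.53 for *Emx2*, -1.76 to -1.53 for *Nr2f1* and -8.32 to -5.92 for *Nr2f2*. The highest adjusted p was 0.018, for *Emx2*. The wide ranges of *Lhx2*, *Pax6* and *Nr2f2* included a pseudocount of 0.1, which enlarges differences from values near 0. Rescaling to TPM moved the median of all genes to -0.12 and lowered the share of calls higher in NSCs from 51.1% to 45.2%.

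Counts moved by more than 1.5 times in 11 cases. With a minimum absolute log2 difference of 1, 2617 genes were higher in NSCs and 2103 in STO cells, against 5375 and 5153 without it. Under the same rule 1 dorsal telencephalic gene and 1 paralog were higher in STO cells, and 6 cofactors were higher in NSCs and 2 in STO cells. Without the filter, 10 dorsal telencephalic, 4 hem and antihem and 5 caudal genes were higher in NSCs and 4 paralogs were higher in STO cells. With TPM, 2 hem and antihem genes were higher in NSCs.

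In a fit with a block for replicate number, 5250 genes were higher in NSCs and 4994 in STO cells, and the members' calls stood at 3 and 3. The deviations of same-numbered samples correlated at 0.01 and 0.06. With 2 NSC samples, the deviations of 1 mirror those of the other, so these values cannot decide whether the numbers mark a pairing. The shared numbers were not taken to pair the samples. Leaving out each replicate in turn gave 4900 to 5252 genes higher in NSCs and 4704 to 5065 higher in STO cells, with all 6 members called in each. With 2 NSC samples, the fit without either leaves 1, which is assumed to vary as the STO samples do. The 3 members near 0 in both cell types are limited by depth, at most 9.09 implied fragments.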
